A study of Homo sapiens with 2 samples.

Results

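Polycomb repressive complex subunits were followed through 10 genes, EZH1, EZH2, EED, SUZ12, JARID2, AEBP2, PHF19, MTF2, RNF2 and BMI1, out of 62700 genes in the gene table. They were chosen by symbol, and all 10 matched 1 entry each in the table of genes and at least 3 entries each in the table of transcripts. The libraries were 2 replicates of TCam-2 cells, an established human seminoma line, transduced with FLAG-tagged DDX53, a DEAD-box RNA helicase, for overexpression. Polyadenylated RNA was sequenced from strand-specific libraries. The study's GFP-transduced and untransduced controls were not analysed here, so what follows gives levels in these cells, differences between the replicates and the transcripts in use, and no effect of DDX53.

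Polycomb proteins keep developmental genes silent through marks on histones. Polycomb repressive complex 2 (PRC2) methylates lysine 27 of histone H3. Its core is a catalytic subunit, EZH2 or its paralog EZH1, with EED, which binds the methyl mark and stimulates the enzyme, and SUZ12, which holds the complex together. Accessory subunits define alternative forms of PRC2: the Polycomb-like proteins PHF1, MTF2 and PHF19 in one form, JARID2 and AEBP2 in the other. Polycomb repressive complex 1 (PRC1) ubiquitinates histone H2A through RNF2 (RING1B) or RING1, each paired with 1 of the PCGF proteins, of which BMI1 is PCGF4. In germ cells and their tumours these complexes are studied because primordial germ cells rebuild their histone marks while DNA methylation is erased.

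Depth was 24137664 reads in genes for replicate 1 and 22198929 for replicate 2. Levels are given as reads per 1000000 reads in genes (CPM), with 95% Wilson intervals that cover counting error only. Orders by CPM are of read numbers, which depend on transcript length. Levels of different genes are compared per length: as TPM (transcripts per 1000000 transcripts) summed over a gene's transcripts, or as reads per kilobase of merged exons, scaled to library size (RPKM). DDX53 itself had 146 and 147 reads, or 6.05 and 6.62 CPM, from which transgene and endogenous transcripts cannot be told apart. Of 8 seminoma markers, 8 reached 1 CPM in both libraries, and the leukocyte markers PTPRC and CD3E had no read. Of 5 embryonal carcinoma markers, 4 also reached it, with TDGF1 at 127 and 120 CPM and DNMT3B at 124 and 98.4 CPM, while SOX2, which separates embryonal carcinoma from seminoma, had 24 reads in each. Among fibroblast markers, COL1A2 was at 455 and 424 CPM, whereas DCN had 1 read in each. Nothing in the labels says that the replicates came from separate cultures, so differences between them may be technical.

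The sequences that separate the main transcripts of these genes are shown first, because the results turn on which transcript a gene used. JARID2 has 2 coding transcripts, each with its own annotated start. A further annotated transcript, JARID2-203, is not coding and was at 0 TPM in both libraries. JARID2-201 begins at position 15246296 of chromosome 6 and JARID2-202 begins 2559 bases downstream, at 15248855, and lacks 516 coding bases at the 5′ end of JARID2-201. The 250 bases before each RefSeq start are given 5′ to 3′ on the plus strand (GRCh38.p14, chr6:15245819-15246068 and chr6:15248605-15248854). The first of these starts lies 227 bases upstream of the start of JARID2-201 in GENCODE, and the second coincides with that of JARID2-202. Capitals mark matches on either strand. The motif CCAAT is one of those searched, TATAAA is another, and TGACGTCA, the full cAMP response element, was added after the windows had been read.
JARID2 upstream start: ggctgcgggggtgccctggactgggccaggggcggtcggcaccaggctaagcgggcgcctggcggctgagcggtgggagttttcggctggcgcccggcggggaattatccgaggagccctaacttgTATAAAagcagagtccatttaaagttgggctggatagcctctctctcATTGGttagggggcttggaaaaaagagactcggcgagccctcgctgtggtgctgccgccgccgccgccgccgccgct
JARID2 downstream start: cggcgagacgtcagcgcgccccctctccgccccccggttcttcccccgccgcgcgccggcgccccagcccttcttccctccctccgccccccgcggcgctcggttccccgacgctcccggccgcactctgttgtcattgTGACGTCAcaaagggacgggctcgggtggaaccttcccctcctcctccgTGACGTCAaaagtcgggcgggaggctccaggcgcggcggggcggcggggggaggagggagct

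The windows differ in their letters. The upstream window held 1 TATAAA, 1 CCAAT on the reverse strand and 22 CG dinucleotides. The downstream window held 2 copies of TGACGTCA, no TATAAA or CCAAT, and 34 CG dinucleotides. Among 35116 windows of the same length in the RefSeq table, 10.7% held TATAAA, 32.0% held CCAAT and 1.65% held TGACGTCA, with a median of 11 CG dinucleotides. Over all 10 genes, 13 of 14 windows were above that median. EED, with 11, was the exception. Its window lies before position 86244753, the start of EED-207, whereas its leading transcript, EED-203, starts downstream, at 86245223. EZH2 had 4 CCAAT matches before its upstream-most start. TTTCGCGC and TTTGGCGC, common forms of the E2F site, were found in 0 of the 14 windows, against 0.968% of all windows with either. Another form, TTTCCCGC, was not searched for, and it occurs in windows of SUZ12 and PHF19. The count therefore covers only the forms searched and does not show that E2F sites are absent. A match is a description of the letters, not evidence of binding.

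In 6 other genes, a coding stretch tells the main transcripts apart. The stretches below are coding in the first transcript named and not in the second (GENCODE 29 on GRCh38, given 5′ to 3′ on the gene's strand). They are the exon of EZH2 that EZH2-202 skips (chr7:148832634-148832750, minus strand), the exon of SUZ12 that SUZ12-204 skips (chr17:31947617-31947685, plus strand), the exon of RNF2 that RNF2-201 skips (chr1:185093061-185093276, plus strand), the exon of MTF2 that MTF2-202 skips (chr1:93129278-93129448, plus strand), the coding end of the short transcript PHF19-201 (chr9:120869686-120869844, minus strand) and that of AEBP2-202 (chr12:19518675-19518720, plus strand).
EZH2-203, not EZH2-202: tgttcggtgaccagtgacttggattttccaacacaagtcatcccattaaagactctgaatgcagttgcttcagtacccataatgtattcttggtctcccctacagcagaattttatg
SUZ12-201, not SUZ12-204: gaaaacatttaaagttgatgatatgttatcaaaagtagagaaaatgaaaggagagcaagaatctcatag
RNF2-202, not RNF2-201: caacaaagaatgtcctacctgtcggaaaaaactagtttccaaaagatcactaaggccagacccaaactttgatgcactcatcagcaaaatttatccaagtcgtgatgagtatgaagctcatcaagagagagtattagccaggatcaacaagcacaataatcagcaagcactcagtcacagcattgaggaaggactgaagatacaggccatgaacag
MTF2-201, not MTF2-202: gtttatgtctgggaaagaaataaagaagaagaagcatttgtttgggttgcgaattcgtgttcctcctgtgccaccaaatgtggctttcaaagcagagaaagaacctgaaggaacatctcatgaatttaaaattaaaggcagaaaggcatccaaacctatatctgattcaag
PHF19-201, not PHF19-202: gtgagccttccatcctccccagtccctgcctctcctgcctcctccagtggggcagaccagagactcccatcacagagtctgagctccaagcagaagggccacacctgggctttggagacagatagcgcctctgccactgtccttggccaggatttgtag
AEBP2-202, not AEBP2-201: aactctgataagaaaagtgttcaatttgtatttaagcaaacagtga

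All 10 genes were detected, with both libraries at or above 1 CPM, against 21.7% of the 62700 genes of the table and 61.7% of the 19831 protein-coding genes of GENCODE 29. By read number, means ran from 16.9 CPM for EZH1 to 98.3 CPM for RNF2, with a median of 37.8 CPM over the 10 genes and 24.4 CPM over the 13604 detected genes. Of the detected genes, 41.5% had fewer reads than EZH1 and 83.8% had fewer than RNF2.

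**Figure D1:**
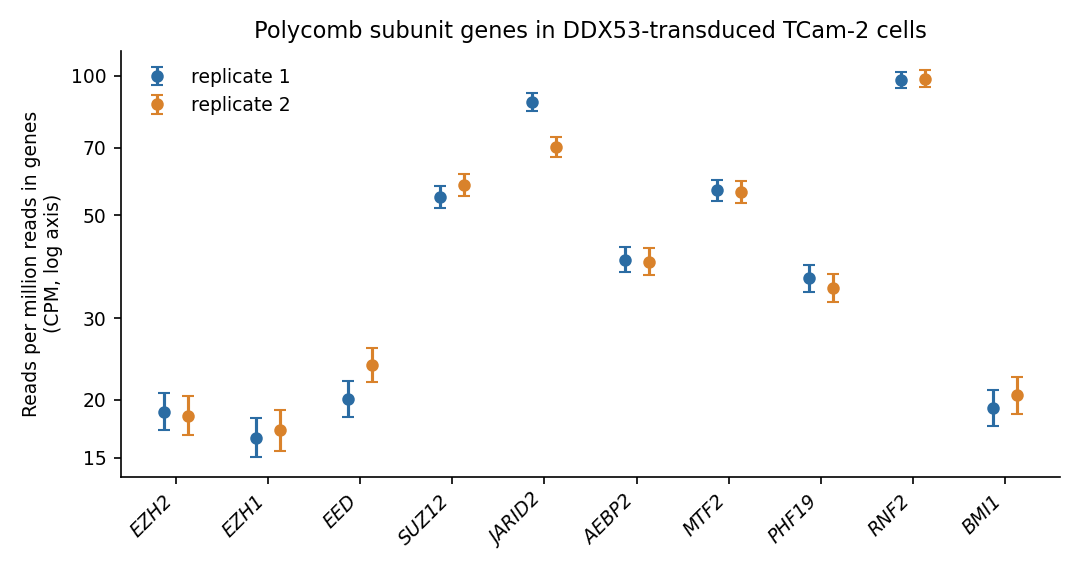
Level in CPM (log axis) of the 10 subunit genes in replicate 1 (blue) and replicate 2 (orange) of DDX53-transduced TCam-2 cells; points are single libraries and bars are 95% Wilson intervals of the counts. The intervals of the replicates overlap for every gene but JARID2, which was at 87.9 and 70.2 CPM, and RNF2 has the highest CPM in both libraries.

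Within the PRC2 core, SUZ12 was above EZH1 and EZH2 per length by TPM and by RPKM, while the level of EED is uncertain. EZH2 (ENSG00000106462.12, chromosome 7 from 148807383 to 148884321), the main methyltransferase of dividing cells, was represented by 455 and 410 reads. Its level was 18.9 CPM in replicate 1, with a 95% Wilson interval of 17.2 to 20.7, and 18.5 CPM in replicate 2, with one of 16.8 to 20.3. EZH1 (ENSG00000108799.13, chromosome 17 from 42700275 to 42745049), the paralog often linked to non-dividing cells, had 400 and 381 reads, or 16.6 and 17.2 CPM. Per length, EZH2 was above EZH1 in both libraries: 7.29 against 4.93 TPM in replicate 1 and 8.51 against 4.99 TPM in replicate 2. The mean log2 ratio was 0.67 ± 0.15 (SD, n = 2), a 1.59-fold excess of EZH2, and EZH2 held 61.4% ± 2.38 of the TPM of the pair. By reads per kilobase of merged exons the excess was 1.71-fold. No test was run on the ratios between genes, which rest on 2 libraries.

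SUZ12 (ENSG00000178691.11, chromosome 17 from 31937018 to 32001045), the scaffold, had 54.9 CPM in replicate 1 and 58.1 CPM in replicate 2. Per length it was above EZH1 and EZH2, at 19.7 and 19.9 TPM, and above EED, whose level is uncertain by either measure. The TPM of SUZ12 exceeded the sum of EZH1 and EZH2 in each library. SUZ12 has a partial duplicate, SUZ12P1, on chromosome 17 from 30709299 to 30790908. SUZ12P1 had 0 and 1 reads in the gene table but 60.1 and 56.7 TPM in the transcript table. The assignment of reads between the copies is therefore uncertain, although the reads of SUZ12 were close to those its TPM predict, with log2 ratios of -0.085 and -0.016.

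EED (ENSG00000074266.23, chromosome 11 from 86244544 to 86278813), the reader of the methyl mark, had 20.1 CPM in replicate 1 (95% Wilson interval, 18.3 to 21.9) and 23.8 CPM in replicate 2 (21.8 to 25.9). It was the lowest of the 10 genes by TPM, at 3.99 and 4.41. That value is uncertain: EED was the only 1 of the 10 genes whose reads departed by over 4-fold from the number predicted from its TPM, with 4.43 times the prediction in replicate 1 and 5.02 times in replicate 2. Transcripts of the table that GENCODE 29 does not hold carry no gene here, so they are not part of the summed TPM. The microRNA gene MIR6755 shares 0.941% of the exonic bases of EED. By RPKM, EED lay between EZH2 and EZH1, at 2.86 and 3.39. That measure is uncertain too: it divides by 7016 bases of merged exons, whereas the leading transcript, EED-203, has 1696 bases. RBBP4 and RBBP7, histone chaperones shared with other chromatin complexes, stood far above the dedicated core genes, at 213 ± 1.52 and 187 ± 7.56 TPM (SD, n = 2 each).

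**Figure D2:**
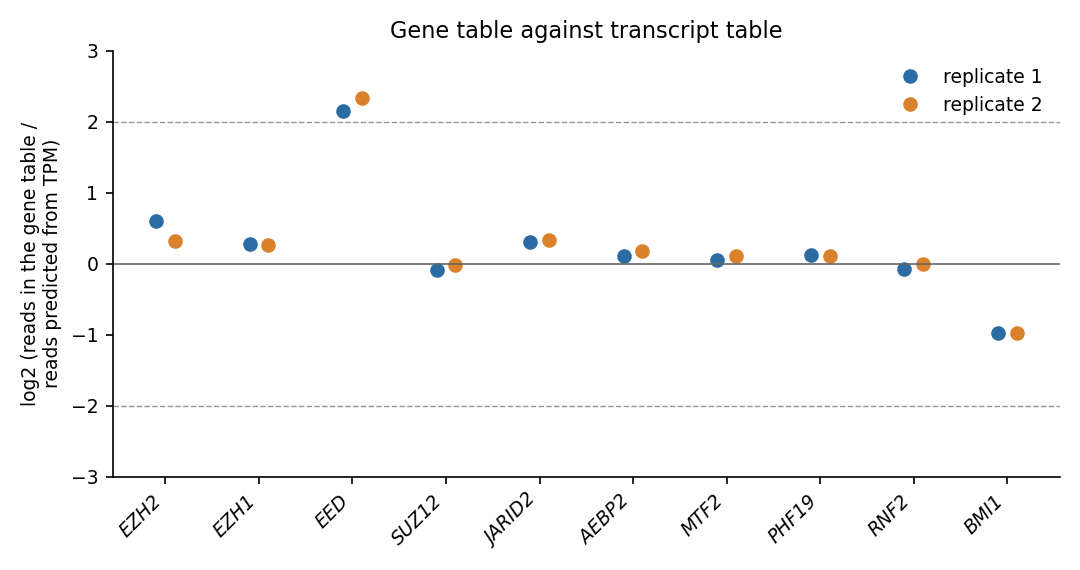
Log2 ratio of the reads in the gene table to the reads predicted from the TPM and length of each gene's transcripts, for the 10 subunit genes in replicate 1 (blue) and replicate 2 (orange); the solid line marks equality and the dashed lines a 4-fold departure. EED lies above the upper dashed line in both libraries, at 2.15 and 2.33, BMI1 lies near -0.98 in both, and the other 8 genes lie between -0.085 and 0.60.

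Of the accessory subunits of PRC2, JARID2 (ENSG00000008083.14, chromosome 6 from 15246296 to 15522040), which helps bring PRC2 to chromatin, had 2121 reads in replicate 1 and 1559 in replicate 2. These are 87.9 CPM (95% Wilson interval, 84.2 to 91.7) and 70.2 CPM (66.8 to 73.8), so the intervals did not overlap. AEBP2 (ENSG00000139154.16, chromosome 12 from 19404045 to 19720801), a zinc finger cofactor that lies on the short arm that germ cell tumours often gain, had 40.1 and 39.7 CPM. MTF2 (ENSG00000143033.18, chromosome 1 from 93079235 to 93139081), a Polycomb-like protein that binds CG-rich DNA, had 56.6 and 56.1 CPM. PHF19 (ENSG00000119403.15, chromosome 9 from 120855652 to 120894896), its paralog, had 36.5 and 34.9 CPM. The replicates of AEBP2, MTF2 and PHF19 overlapped within counting error.

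Which accessory subunit was higher per length depended on the measure. By summed TPM, PHF19 was above MTF2, with a mean log2 ratio of MTF2 to PHF19 of -0.47 ± 0.062 (SD, n = 2). By RPKM over merged exons the order turned, with MTF2 1.80-fold above PHF19. Likewise AEBP2 was above JARID2 by summed TPM, with a log2 ratio of JARID2 to AEBP2 of -0.56 ± 0.14 (SD, n = 2), and JARID2 was 2.15-fold above AEBP2 by RPKM. The short transcript PHF19-201, of 836 bases, carried 73.9% ± 1.39 of the TPM of PHF19, while the 3 main transcripts of AEBP2 had 975, 2533 and 3620 bases. Neither order is given as a result. PHF1, the remaining Polycomb-like gene, held 21.4% ± 1.11 of the family's TPM and 28.2% ± 2.20 of its RPKM (SD, n = 2 each).

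In PRC1, RNF2 (ENSG00000121481.11, chromosome 1 from 185045364 to 185102608), the ubiquitin ligase subunit, was first of the 10 genes by CPM, TPM and RPKM. It had 2364 reads in replicate 1 and 2192 in replicate 2, or 97.9 and 98.7 CPM and 66.7 and 63.2 TPM. Its paralog RING1 had 19.3 and 18.3 CPM. RNF2 was 4.15-fold above RING1 by summed TPM and 2.34-fold above it by RPKM, and its share of the pair was 80.6% ± 0.0365 and 70.02% ± 0.925 (SD, n = 2 each). The excess of RNF2 held in both libraries by either measure.

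BMI1 (ENSG00000168283.14, chromosome 10 from 22321211 to 22331484), a partner of RNF2 in canonical PRC1 and a repressor of CDKN2A in many cells, had 463 and 454 reads, or 19.2 and 20.5 CPM. PCGF2, the paralog that takes the same place in PRC1, had 94.3 and 88.9 CPM. Per length, PCGF2 exceeded BMI1 3.30-fold by summed TPM, with a log2 ratio of BMI1 to PCGF2 of -1.72 ± 0.28 (SD, n = 2), and 5.64-fold by RPKM. Between the top transcripts of the 2 genes the excess was 1.46-fold. BMI1 held 10.4% ± 1.07 of the TPM of the 6 PCGF genes and PCGF2 held 34.2% ± 3.24. The read-through gene COMMD3-BMI1 covers 23.3% of the exonic bases of BMI1 on the same strand. It had 0 reads in either library, and the reads of BMI1 were 0.506 times the number predicted from its TPM in both. The level of BMI1 is uncertain for that reason, and the part of the shared bases in it was not tested. BMI1 was below PCGF2 in both libraries by each of these 3 measures.

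**Figure D3:**
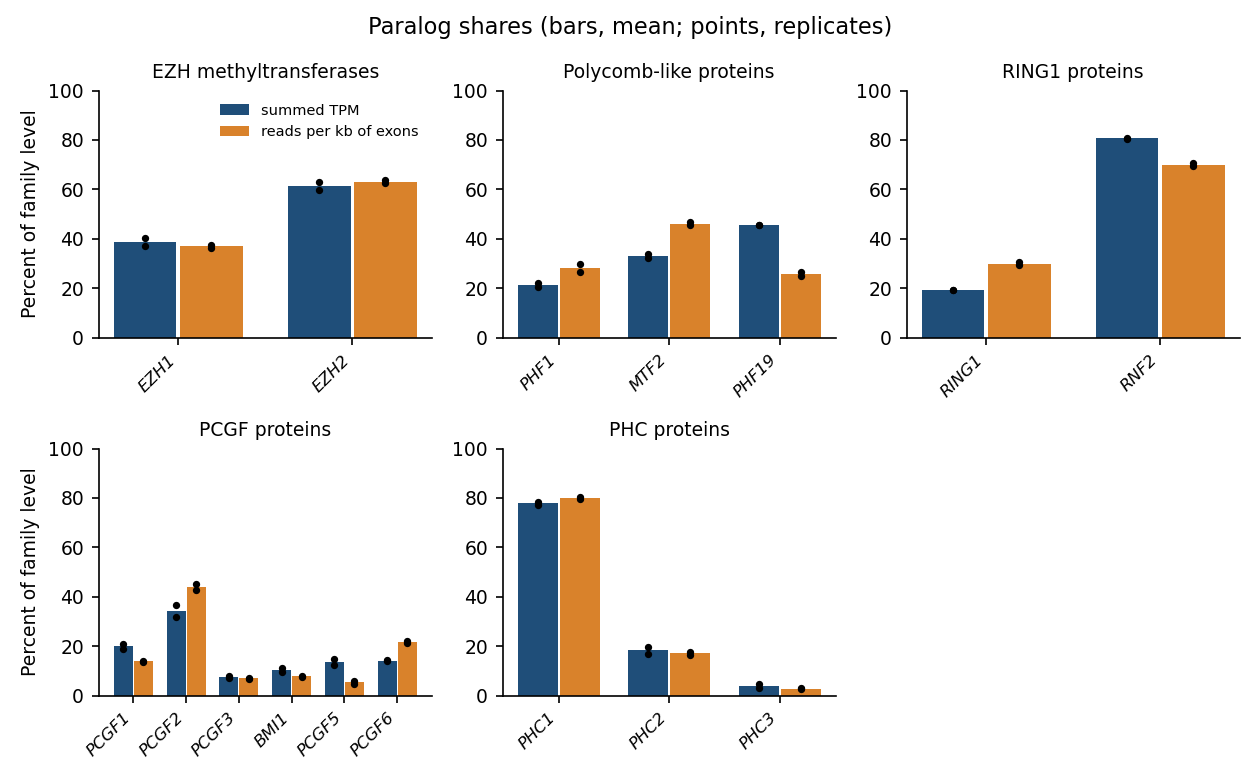
Share of each paralog in the summed level of its family (percent), by summed TPM (blue) and by reads per kilobase of merged exons (orange); bars are the mean of the 2 libraries and points are the libraries. EZH2, RNF2, PCGF2 and PHC1 lead their families by both measures, whereas PHF19 leads the Polycomb-like genes by TPM (45.6%) and MTF2 by reads per kilobase (46.2%).

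The order of the 10 genes by mean TPM was RNF2, PHF19, AEBP2, MTF2, SUZ12, BMI1, JARID2, EZH2, EZH1 and EED. The ranges over the libraries overlapped between AEBP2 and MTF2, between SUZ12 and BMI1, and between BMI1 and JARID2, so these neighbours cannot be ordered. By RPKM the order was RNF2, JARID2, MTF2, SUZ12, AEBP2, PHF19, BMI1, EZH2, EED and EZH1. RNF2 was first by both, and EZH2, EZH1 and EED filled the last 3 places by both. The place of EED is uncertain by either measure, because neither its TPM nor the exon length behind its RPKM is secure.

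The replicates were set against each other with a two-sided exact binomial test in edgeR on whole reads, which compares these 2 libraries and no conditions. The test allows for counting error only, so a small p does not take account of the usual variation between libraries. With Benjamini-Hochberg adjustment, 2 of the 10 genes were called at 0.05, and the test called 13.1% of all 15299 genes tested. JARID2 was lower in replicate 2, as were 6.35% of all genes, and EED was higher, as were 6.78%. JARID2 fell by 0.32 on the log2 scale of CPM + 1 (counting SE, 0.048), with an adjusted p of 3.46e-09 in edgeR's exact binomial test. Its level in replicate 2 was 0.799 times that in replicate 1. EED rose by 0.24 (counting SE, 0.091), with an adjusted p of 0.0444 in the same exact test. The call of EED was lost when library sizes were taken as total reads (edgeR exact binomial test, adjusted p of 0.0516) and when every gene with a read was tested (adjusted p of 0.0754). Over all genes, the former called 13% (6% higher and 7.04% lower in replicate 2) and the latter 6.47% (3.15% higher and 3.32% lower). With DESeq2 size factors the share was 13.1% (6.82% higher and 6.31% lower), and both genes were called.

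The other 8 genes were not called, with differences from -0.066 for PHF19 to 0.088 for BMI1. The median over the 10 genes was -0.00055, with 5 higher and 5 lower in replicate 2, against -0.0077 over the 13898 genes whose mean reached 1 CPM. The SD of the difference over those genes was 0.18. Genes of the same length class as JARID2 had a median difference of -0.0030, and JARID2 stood at -0.32 after that was taken off. With 1 library on each side neither call has a replicate check.

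**Figure D4:**
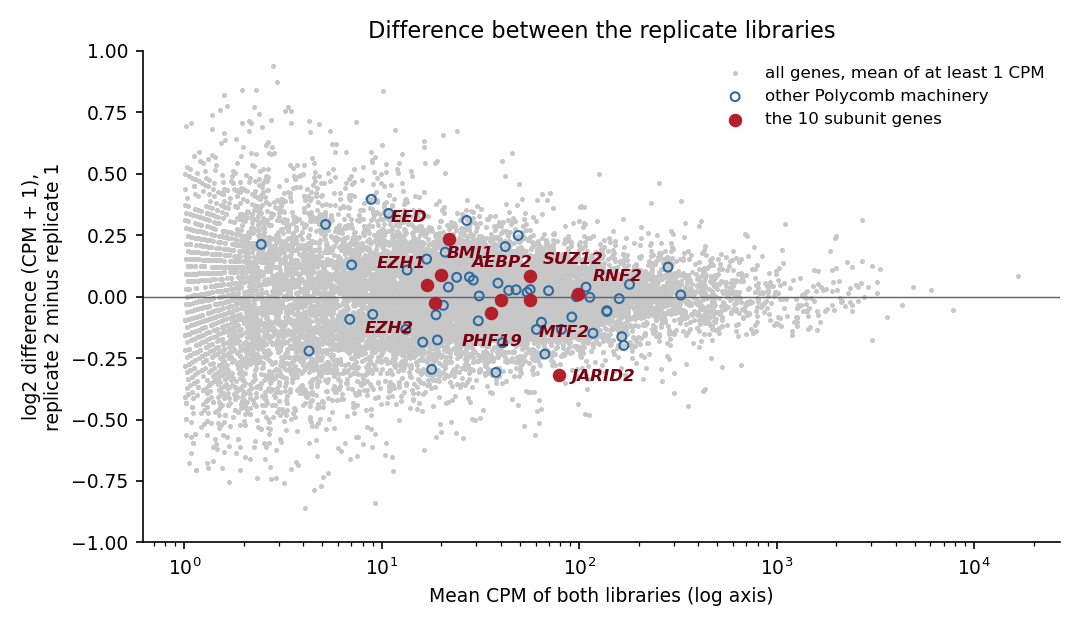
Difference between the libraries (log2 of CPM + 1, replicate 2 minus replicate 1) against the mean CPM of both (log axis); grey points are 13898 genes, open blue circles the other Polycomb machinery and red points the 10 subunit genes. JARID2 at -0.32 and EED at 0.24 stand off the line at 0, and the other 8 red points lie between -0.066 and 0.088.

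Transcript use was then compared. The same transcript was the highest in both libraries for all 10 genes, as it was in 91.2% of 9326 genes with more than 1 matched transcript and at least the lowest TPM of the 10. The share of the leading transcript ranged from 32.9% for AEBP2-202 to 92.0% for BMI1-201 in replicate 1. The transcript table gives no read depth, so shares carry no interval.

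JARID2 showed the largest move of a leading transcript among the 10 genes. JARID2-201, from the upstream start, had 11.8 TPM in replicate 1 and 12.03 TPM in replicate 2. JARID2-202, from the downstream start, had 6.82 and 2.49 TPM. The share of JARID2-201 was 63.5% in replicate 1 and 82.9% in replicate 2, a move of 19.4 percentage points, against a median move of 3.63 points over the 9326 genes. Of those genes, 5.81% moved by as much or more. By TPM, the lower level of JARID2 in replicate 2 lay in the transcript of the downstream start. In coding sequence, the 2 transcripts differ by 516 bases at the 5′ end. The number of reads behind their split is not known, so this place is uncertain. JARID2-DT, a transcript annotated upstream of the gene, had 42 and 55 reads.

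In EZH2, the transcript EZH2-203, which encodes 746 residues, held 66.1% and 63.3% of the TPM. EZH2-202, which skips the exon shown above and encodes 707 residues, held 16.04% and 8.36%. EZH2-208, which lacks 27 coding bases of EZH2-203, held 11.7% in each library. EZH1 relied on EZH1-202, of 747 residues, with 86.1% and 83.8%. SUZ12-201 held 84.2% and 82.2% of SUZ12, and SUZ12-204, without the exon shown above, held 15.7% and 17.8%. A coding transcript thus led each of the 3 genes in both libraries.

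PHF19 was dominated by its short form. PHF19-201 has 5 exons and 207 codons and ends in the stretch printed above, whereas the full-length PHF19-202 has 15 exons and 580 codons. PHF19-201 held 74.9% and 72.9% of the TPM, at 24.4 and 23.1 TPM, and PHF19-202 held 13.1% and 12.5%, at 4.26 and 3.97 TPM. PHF19-203, of 371 codons, held 9.73% and 9.54%. These shares count molecules. Since PHF19-202 is 4241 bases long and PHF19-201 is 836 bases, their shares of reads are closer.

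RNF2 was divided among RNF2-202 (44.2% and 44.8%), RNF2-203 (30.3% and 27.7%) and RNF2-201 (25.0% and 27.5%). RNF2-202 encodes 336 residues and RNF2-201, without the exon shown above, encodes 264, while RNF2-203 is annotated as incomplete at its 3′ end. MTF2-201, of 593 residues, held 63.4% and 52.2% of MTF2, and MTF2-202, of 536 residues, held 14.7% and 16.2%. AEBP2 was divided among 3 transcripts as well, with AEBP2-202 at 32.9% and 46.0%, AEBP2-207 at 31.4% and 22.1% and AEBP2-201 at 26.8% and 22.7%. AEBP2-201 encodes 503 residues and AEBP2-202 encodes 301, with different ends. BMI1-201 held 92.0% and 78.8%, and the incomplete BMI1-202 held 2.76% and 20.5%. EED-203, of 466 residues, held 62.1% and 55.8% of the summed TPM, but its minor transcripts moved more than JARID2-201 did. EED-205, annotated as keeping an intron, was listed at 0 TPM in replicate 1 and held 21.7% in replicate 2, at 0.954 TPM. EED-207 held 22.4% and 2.26%, at 0.894 and 0.0995 TPM.

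**Figure D5:**
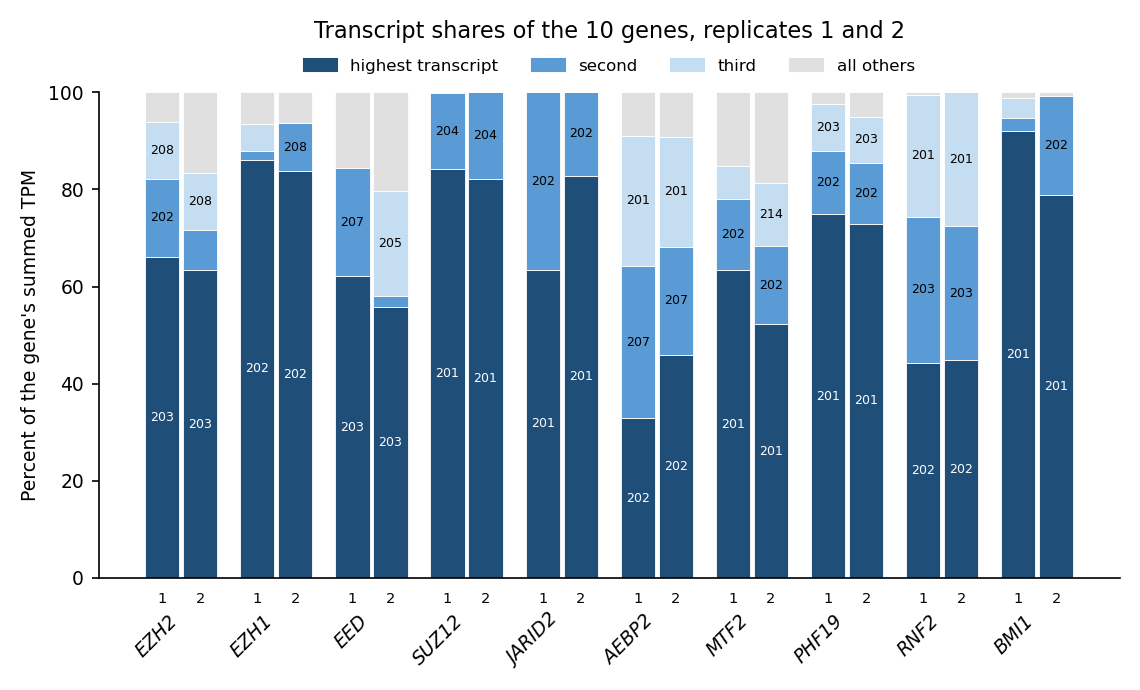
Share of each transcript in the summed TPM of its gene (percent), with replicate 1 on the left and replicate 2 on the right of each pair; dark to light blue are the 3 highest transcripts by mean TPM in that order, grey all others, and numbers are transcript names. JARID2 shows the largest move of a leading transcript, from 63.5% to 82.9%, while PHF19 and RNF2 keep nearly the same division in both libraries.

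The other Polycomb machinery was described from 6 lists. Of its 54 genes, 51 were detected and tested. Between the replicates, 13 of these 51 were called, 6 higher and 7 lower in replicate 2. That is a higher share than the 13.1% called over all genes tested, and the reason was not tested. The median difference over the 51 genes was 0.0025. Among 7 further PRC2 genes, 6 were detected. RBBP4 had the most reads, and EZHIP, an inhibitor of PRC2 known from germ cells and some brain tumours, had the fewest, with 1 and 0. A count of 0 allows up to 3 reads, or 0.135 CPM in replicate 2. RBBP7 rose from 270 to 293 CPM (edgeR exact binomial test, adjusted p of 1.51e-05), and LCOR, the gene that also encodes the PRC2 subunit PALI1, fell from 42.0 to 33.7 CPM (adjusted p of 0.000224).

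All 8 further core genes of PRC1 were detected. RYBP, which stimulates variant PRC1, had the most reads, at 107 and 110 CPM. Per length it was below PCGF2, at 14.98 against 26.1 RPKM on average, and its summed TPM was 1.83 and 1.89. That TPM is uncertain, because the reads of RYBP were 12.1 and 11.9 times the number predicted from it. YAF2, its paralog, had the fewest reads, at 6.67 and 7.39 CPM. PCGF5, a subunit of variant PRC1, rose from 23.9 to 29.9 CPM (edgeR exact binomial test, adjusted p of 0.00114). All 11 genes of canonical PRC1 were detected, and read numbers ran from CBX7 at 4.28 ± 0.571 CPM to PHC1 at 159 ± 0.654 CPM (SD, n = 2 each). PHC1, a polyhomeotic protein that links PRC1 complexes, held 77.8% ± 0.629 of the TPM of the 3 PHC genes. CBX6, of the CBX proteins that read methylated H3K27, rose from 7.50 to 10.2 CPM (edgeR exact binomial test, adjusted p of 0.0182).

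All 14 partners of variant PRC1 were detected, with the most reads for TFDP1, at 180 ± 4.40 CPM (SD, n = 2). KDM2B, which brings variant PRC1 to unmethylated CG-rich DNA, was at 96.6 and 96.5 CPM. SKP1, with the fewest reads, had 9.45 and 12.2 CPM but 514 ± 17.1 TPM, so its counts are uncertain. USP7, MGA and WDR5 were called lower in replicate 2 and SKP1, on these uncertain counts, higher. Over all genes tested, 13.1% were called. Of 12 genes of the H2A deubiquitinases and their cofactors, 10 were detected. BAP1, the catalytic subunit of the Polycomb deubiquitinase, was at 69.3 and 70.5 CPM, and OGT had the most reads, at 168 ± 16.5 CPM (SD, n = 2), though by TPM it was below FOXK2, at 29.6 against 40.6 on average. ASXL3 had 4 and 1 reads, and MYSM1, another H2A deubiquitinase, had the fewest, with 4 and 0 reads. ASXL1 and MBD6 were called higher, and OGT and FOXK1 lower, in replicate 2. The H3K27 demethylase genes KDM6A and KDM6B were both detected, at 43.9 ± 0.552 and 13.2 ± 0.927 CPM (SD, n = 2 each), and 0 of the 2 were called. The reads of KDM6A were 12.1 and 6.33 times the number predicted from its TPM, so its level is uncertain.

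Developmental regulators described elsewhere as Polycomb targets had a median of 0.210 CPM, against 6.76 CPM over protein-coding genes. Of 24 such genes, 6 reached 1 CPM in both libraries, or 25%, against 21.7% of all genes and 61.7% of protein-coding genes, and 10 had at most 3 reads in each. PAX3 and PAX7 were without a read, and a count of 0 allows a level of up to 0.124 CPM at the depth of replicate 1 and 0.135 CPM at that of replicate 2. HAND1 had the most reads, at 7.17 and 7.97 CPM. CDKN2A, a cell cycle inhibitor, had 75 and 51 reads, or 3.11 and 2.30 CPM. FOXA2 fell from 3.40 to 2.03 CPM and was the only 1 of 7 tested that was called (edgeR exact binomial test, adjusted p of 0.0454), against 13.1% of all genes tested. No histone mark was measured, and whether these genes carry one was not tested.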

How the data were processed

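Polyadenylated RNA of 2 libraries of 1 group was analysed. Per the submitters' processing notes, the tools were Trim Galore 0.6.10, STAR 2.7.11a, DESeq2 and Salmon 1.10.2, with GRCh38 as the build; the annotation and counting step are not given in the sources used here. The authors deposited TPM per transcript. The deposited signal per gene, named as CPM, consists of read counts that share 1 divisor within each library. Whole reads were recovered by dividing by the smallest value above 0 (100% of values came out whole within 0.01). Transcripts were joined to GENCODE 29 by identifier without version: 201667 of 251955 matched, with 94.8% of TPM in replicate 1 and 94.8% in replicate 2. The number of unused columns of per-sample values was 0. The headers name the 2 columns of values and not that of identifiers.

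Libraries were compared with edgeR 4.0.16 (binomTest, TMM, filterByExpr, Benjamini-Hochberg over all genes tested, threshold 0.05). This was tested on simulated data. Log2 differences used a pseudocount of 1 CPM. Predicted reads were TPM times transcript length, scaled as CPM. Upstream windows came from RefSeq (GRCh38.p14), where 10 of 10 genes matched. Coding stretches were compared between coding transcripts with a mean share of at least 5%. Alternatives covered thresholds, scaling (DESeq2 1.42.0 size factors among them), pseudocount, filter, length measure and single libraries.

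Genes named were the 10 subunits, of each other list its highest and lowest gene by mean CPM, those without a read, those called, the paralogs compared and genes sharing exons with a subunit gene. Others (KDM2B, BAP1, CDKN2A, ASXL3, PHF1, FOXK2, SOX2, TDGF1, DNMT3B, COL1A2, DCN, KDM6A, KDM6B) were chosen after their values were seen. An item of 1 list is not reported here. Members and lists were chosen with earlier results of these data known. Over 2 libraries every correlation between genes is 1 or -1, so no gene was named for a similar pattern.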

Additional observations from a re-analysis of the deposited data

How the results depend on the processing

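No paired analysis was possible because only 1 group was present. All 10 subunit genes were detected under each threshold, by TPM and in each library alone, and their leading transcript was the same with coding transcripts only. The number called between the replicates was 2, and 1 with every gene with a read tested or with total reads as library sizes, where EED dropped out. JARID2 was called in each setting, with differences from -0.34 to -0.31. Levels per length depended most on the measure. By reads per kilobase of merged exons, the mean log2 ratio of MTF2 to PHF19 turned to 0.85 and that of JARID2 to AEBP2 to 1.104, RNF2 to RING1 was 1.22 and BMI1 to PCGF2 was -2.50. By the top transcript of each gene, JARID2 to AEBP2 turned to 0.34, and the others were 0.27 for EZH2 to EZH1, -0.83 for MTF2 to PHF19, 0.89 for RNF2 to RING1 and -0.54 for BMI1 to PCGF2. With the basic transcript set, chosen after seeing the data, EZH2 to EZH1 was 0.84, MTF2 to PHF19 was -0.61 and RNF2 to RING1 was 1.55. The cause was not tested. In single libraries the ratios ranged from 0.56 to 0.77 for EZH2 to EZH1 and from -1.92 to -1.52 for BMI1 to PCGF2. Of the 24 described targets, 11 were detected at 0.1 CPM and 1 at 5 CPM, against 6. Depth limits genes of few reads, and transcript shares have no known depth.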
